A study of Mus musculus with 8 samples.

Results

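The 2 E2-KO samples were compared with the 2 E1-KO samples, which were chosen by their titles and made up 4 of the 8 samples of the series. Both lines were E14TG2a mouse embryonic stem (ES) cells of the 129/Ola strain, in which an enhancer had been knocked out with CRISPR/Cas9. The E1-KO line lacked the enhancer called E1 and the E2-KO line the enhancer called E2. The other 4 samples were wild-type (WT) E14TG2a cells and E3-KO, a further enhancer knockout, with 2 samples each. All groups had been kept at passages 3 to 6, feeder-free on gelatin, in serum medium with LIF (leukaemia inhibitory factor), the GSK3 inhibitor CHIR99021 and the MEK inhibitor PD0325901. The stated interest was how promoter-enhancer associations bear on the functions of Sox2, and the comparison asked what else differed between a line with a deep and a line with a mild loss of Sox2. The labels give neither the positions of the enhancers nor the number of clones behind a line, and no edited line with its enhancers intact was analysed here. The effect of an enhancer and the effect of a clone therefore cannot be told apart.

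An enhancer is a stretch of DNA that raises transcription of a gene from a distance, and several enhancers can feed the same promoter. SOX2 is a transcription factor of the SOX family, which bends DNA at a short A- and T-rich word, and in ES cells it binds together with OCT4 (Pou5f1) at many pluripotency genes. In medium with LIF and both kinase inhibitors, ES cells are held in the naive state, in which factors such as NANOG, ESRRB and the KLF family support one another.

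Levels are given as FPKM, fragments scaled to transcript length and to the mapped fragments of the library. Differences are E2-KO minus E1-KO in log2(FPKM + 1), where adding 1 makes the changes of low genes look smaller than they are. A gene was called when limma-trend, a linear model across all genes, gave a Benjamini-Hochberg adjusted p-value under 0.05. The labels call the 2 samples of a group biological duplicates, and no culture or clone is named, so the p-values measure only the spread between these samples. Between 11080 and 11155 genes reached 1 FPKM in each of the 4 samples. Across genes, which are not independent replicates, the correlation of log2(FPKM + 1) was 0.991 between the E1-KO samples, 0.985 between the E2-KO samples and 0.979 to 0.982 between the lines. All 10 ES cell markers were expressed, at summed levels of 2671 and 2749 FPKM in E1-KO and 2878 and 2759 FPKM in E2-KO. The 7 primitive endoderm markers found were all below 1 FPKM in the 4 samples, as were 4 of 6 neural, 5 of 7 trophoblast and 5 of 6 mesoderm markers. Of 12 fibroblast markers 7 were below 1 FPKM, with Twist2 and Lum listed at 0. Their sum was 82.1 and 61.7 FPKM in E1-KO and 100.2 and 107 FPKM in E2-KO. Vim made up most of it, and without Vim the sums were 12.4 and 9.18 FPKM against 5.38 and 6.36 FPKM.

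Sox2 (ENSMUSG00000074637) was higher in E2-KO than in E1-KO. Its level was 58.0 and 60.3 FPKM in the E1-KO samples and 114 and 97.5 FPKM in the E2-KO samples, beside 131 and 136 FPKM in WT. Both E2-KO samples lay above both E1-KO samples and below both WT samples. The means differed 1.78-fold, and the difference was 0.82 (SE 0.104, 95% confidence interval 0.59 to 1.06, limma-trend adjusted p = 0.0161). Without E1-KO replicate 1, E1-KO replicate 2 or E2-KO replicate 1, the limma-trend adjusted p was 0.143, 0.107 and 0.0766, with differences of 0.79, 0.85 and 0.71. The samples are bulk RNA, in which fewer cells with a gene active and less RNA per cell cannot be told apart. Sox2 lies at chr3:34650405-34652461 on the plus strand of GRCm38, in GENCODE M21. RefSeq places the start earlier, at 34649995 in GRCm38.p6, and positions of upstream words here are counted from RefSeq starts. The 250 bases before that start (chr3:34649745-34649994, plus strand) are shown as the promoter of the gene the study is about. Capitals mark a SOX word, CATTGT or CTTTGT, on either strand, which here reads ACAAAG, 206 bases before the RefSeq start.
Sox2: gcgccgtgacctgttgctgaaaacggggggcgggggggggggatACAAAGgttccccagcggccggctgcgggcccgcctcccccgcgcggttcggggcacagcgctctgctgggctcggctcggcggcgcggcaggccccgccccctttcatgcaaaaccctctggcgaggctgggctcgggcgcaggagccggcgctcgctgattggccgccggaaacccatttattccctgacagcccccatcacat

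The same words were found before the start of 5946 of 22862 genes with a single listed start (26%) and of 1142 of 6952 such tested genes (16.4%). They were found in 7 of 29 genes called higher in E2-KO (24.1%) and in 0 of 20 genes called lower. A match describes these letters only and is not a binding site.

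Over all genes the lines were close. Of 11274 tested genes, 94 were called (0.834%), 55 of them higher in E2-KO (0.488%) and 39 lower (0.346%). The median difference of all tested genes was -0.005 and the median absolute difference 0.158, while the smallest absolute difference among called genes was 0.51. In all 94 called genes the samples of the lines did not overlap. Over all tested genes, both E2-KO samples lay above both E1-KO samples in 24.9% and below both in 26%. An unadjusted limma-trend p under 0.05 was reached by 2091 genes (18.5%), 1029 higher and 1062 lower. The number called changed when single libraries were left out, and was 6, 8, 2 and 58 without E1-KO replicate 1, E1-KO replicate 2, E2-KO replicate 1 and E2-KO replicate 2, 28 without either WT replicate, and 261 and 251 without the first and the second E3-KO replicate. Fitted on the 4 samples alone, it was 1 gene, Epop. Of the called genes named here, Cdx1, Hspb8, Vangl1 and Zmym4 were not called after quantile normalization. Aass, Calcoco2, Ckb, Epop, Gss, Gsta3, Hspb8, Mt2, Ndufs3, Ube2l6, Vangl1 and Zmym4 were not called by limma without trend.

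**Figure D1:**
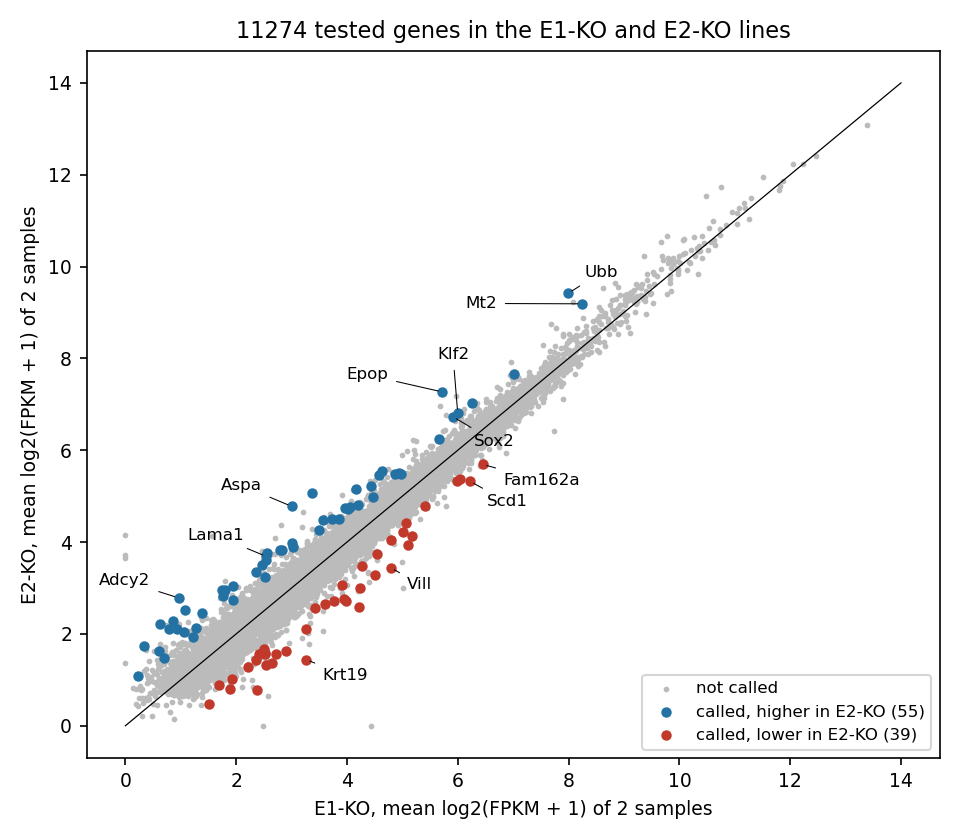
Mean log2(FPKM + 1) of the 2 E1-KO samples (x axis) and of the 2 E2-KO samples (y axis) for the 11274 tested genes, with the line of equal levels. The 55 genes called higher in E2-KO lie above the line and the 39 called lower lie below it, spread over the whole range of levels, while most genes lie close to it.

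The genes called higher in E2-KO included pluripotency-associated, chromatin, ubiquitin, membrane and metabolic genes. Klf2, a naive pluripotency transcription factor, was at 59.1 and 67.0 FPKM in E1-KO and at 109 and 112 FPKM in E2-KO, beside 109 and 121 FPKM in WT. Its E2-KO samples thus lay at the WT level and its E1-KO samples well below, with a difference of 0.81 (SE 0.118, limma-trend adjusted p = 0.0251). Epop, which encodes a partner of the Polycomb repressive complex PRC2, stood at 49.7 and 53.7 FPKM in E1-KO, 151 and 155 FPKM in E2-KO and 60.0 and 67.8 FPKM in WT. Of the 2 lines, E2-KO stood away from WT here, with a difference from E1-KO of 1.55 (SE 0.27, limma-trend adjusted p = 0.0439). E3-KO was at 144.9 and 68.46 FPKM, so 1 of its samples stood near E2-KO. Ubb, a polyubiquitin gene, also stood away from WT in E2-KO. It had 237 and 272 FPKM in E1-KO, 693 and 673 FPKM in E2-KO and 253 and 226 FPKM in WT (difference 1.42, SE 0.139, limma-trend adjusted p = 0.0139). E3-KO was at 692.7 and 549.8 FPKM, so the high level of Ubb was not particular to E2-KO. Ubb shares near-identical repeats with other ubiquitin genes, so its reads may be split among them. Calcoco2, a receptor of selective autophagy, was at 72.3 and 79.1 FPKM in E1-KO and 137 and 124 FPKM in E2-KO, and Ube2l6, a conjugating enzyme of the ubiquitin-like protein ISG15, at 12.8 and 16.5 against 23.9 and 28.0 FPKM.

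Among genes of the cell surface and its surroundings, Lama1, the alpha chain of the basement membrane laminin of early embryos, was at 4.73 and 4.91 FPKM in E1-KO and 13.1 and 10.8 FPKM in E2-KO. Both lines were below WT, which had 28.2 and 29.4 FPKM, and they differed by 1.15 (SE 0.122, limma-trend adjusted p = 0.0139). Mme, the membrane peptidase neprilysin, was at 22.5 and 25.1 FPKM in E1-KO and 49.1 and 43.0 FPKM in E2-KO (difference 0.92, limma-trend adjusted p = 0.0161), with WT at 42.1 and 41.9 FPKM. Vangl1, a planar cell polarity protein, was at 49.24 and 50 FPKM in E1-KO and 74.88 and 74.67 FPKM in E2-KO. Egfr, the receptor of epidermal growth factor, was low in both lines, with 0.522 and 0.525 FPKM against 1.74 and 2.47 FPKM. Several of the largest differences were likewise in genes near 1 FPKM in E1-KO. Adcy2, an adenylyl cyclase, had 0.744 and 1.16 FPKM in E1-KO and 5.33 and 6.49 FPKM in E2-KO, a 6.19-fold difference of means and the largest called difference (1.83, SE 0.237, limma-trend adjusted p = 0.0161). Sgcz, a sarcoglycan, had 0.338 and 0.76 against 3.99 and 3.37 FPKM (1.61), Tmem132d 0.162 and 0.354 against 2.44 and 2.25 FPKM (1.41), and Slc5a1, a sodium-glucose cotransporter, 0.558 and 0.887 against 3.50 and 3.07 FPKM (1.32). In all of these the samples of the lines were well apart. Tmem132d would not have reached the tested level without its E2-KO samples, with means of 0.282 FPKM in WT and 1.434 FPKM in E3-KO. Of the 94 called genes, 25 had a mean below 5 FPKM in both lines.

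Enzymes and stress-related genes were also among those higher in E2-KO. Aspa, which cleaves N-acetylaspartate, was at 5.24 and 9.29 FPKM in E1-KO and 24.9 and 28.0 FPKM in E2-KO, beside 22.9 and 24.4 FPKM in WT (difference 1.78, SE 0.208, limma-trend adjusted p = 0.016). Ckb, the brain-type creatine kinase, was at 121 and 136 FPKM in E1-KO, 196 and 208 FPKM in E2-KO and 233 and 262 FPKM in WT. Gss, glutathione synthetase, had 17.3 and 17.6 against 27.2 and 27.0 FPKM, and Ndufs3, a subunit of respiratory complex I, 21.08 and 20.96 against 31.17 and 29.98 FPKM, which was among the smallest differences called (0.52). Mt2, a metal-binding metallothionein, was at 306 and 298 FPKM in E1-KO and at 695 and 488 FPKM in E2-KO (difference 0.94, SE 0.163, limma-trend adjusted p = 0.0439). Its neighbour in the family Mt1 was at 398 and 412 FPKM in E1-KO and 503 and 509 FPKM in E2-KO, which did not pass the test (0.32, limma-trend adjusted p = 0.231). The other called gene of the 13 tested metallothionein and oxidative stress genes was Srxn1, sulfiredoxin, which moved the other way, from 23.3 and 21.6 FPKM in E1-KO to 12.1 and 12.8 FPKM in E2-KO.

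Genes lower in E2-KO included cytoskeletal and homeobox genes. Krt19, a keratin of simple epithelia, was at 10.3 and 7.15 FPKM in E1-KO and 1.08 and 2.55 FPKM in E2-KO, beside 10.7 and 10.8 FPKM in WT, the largest called difference in this direction (-1.82, SE 0.255, limma-trend adjusted p = 0.0211). E1-KO was thus near WT and E2-KO well below. The trophectoderm keratins were measured too: Krt18 was at 6.26 and 5.34 against 3.05 and 2.82 FPKM (-0.79, limma-trend adjusted p = 0.105) and Krt8 at 13.8 and 10.3 against 9.27 and 7.78 FPKM (-0.44, limma-trend adjusted p = 0.247), neither of which passed the test. Vill, a villin-like actin-binding protein, stood at 30.2 and 23.4 FPKM in E1-KO and 9.07 and 10.7 FPKM in E2-KO, both above the 2.46 and 3.10 FPKM of WT (difference -1.35, SE 0.17, limma-trend adjusted p = 0.0161). Capg, an actin filament capping protein, had 33.9 and 28.8 FPKM in E1-KO and 16.47 and 18.95 FPKM in E2-KO, and Des, the muscle intermediate filament desmin, 11.5 and 10.9 against 4.52 and 6.08 FPKM.

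Lcp1, an actin-bundling protein best known from leukocytes, was at 5.42 and 7.76 FPKM in E1-KO and 1.996 and 2.201 FPKM in E2-KO, both below the 14.6 and 14.5 FPKM of WT (difference -1.28, SE 0.165, limma-trend adjusted p = 0.0161). Ctsc, a lysosomal protease, had 31.5 and 35.0 FPKM in E1-KO and 13.7 and 14.7 FPKM in E2-KO (-1.17, SE 0.125, limma-trend adjusted p = 0.0139). Gngt2, a G protein gamma subunit, had 3.55 and 4.94 against 0.912 and 0.517 FPKM. For Ctsc and Gngt2, too, the E2-KO samples lay below both E1-KO samples. Gngt2 would not have reached the tested level without its E1-KO samples, with means of 1.106 FPKM in WT and 0.6811 FPKM in E3-KO. Atp2a3, a calcium pump of the endoplasmic reticulum, had 9.72 and 9.78 FPKM in E1-KO and 4.93 and 4.97 FPKM in E2-KO, with WT at 11.2 and 12.3 FPKM. E1-KO was thus nearer to WT than E2-KO was.

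**Figure D2:**
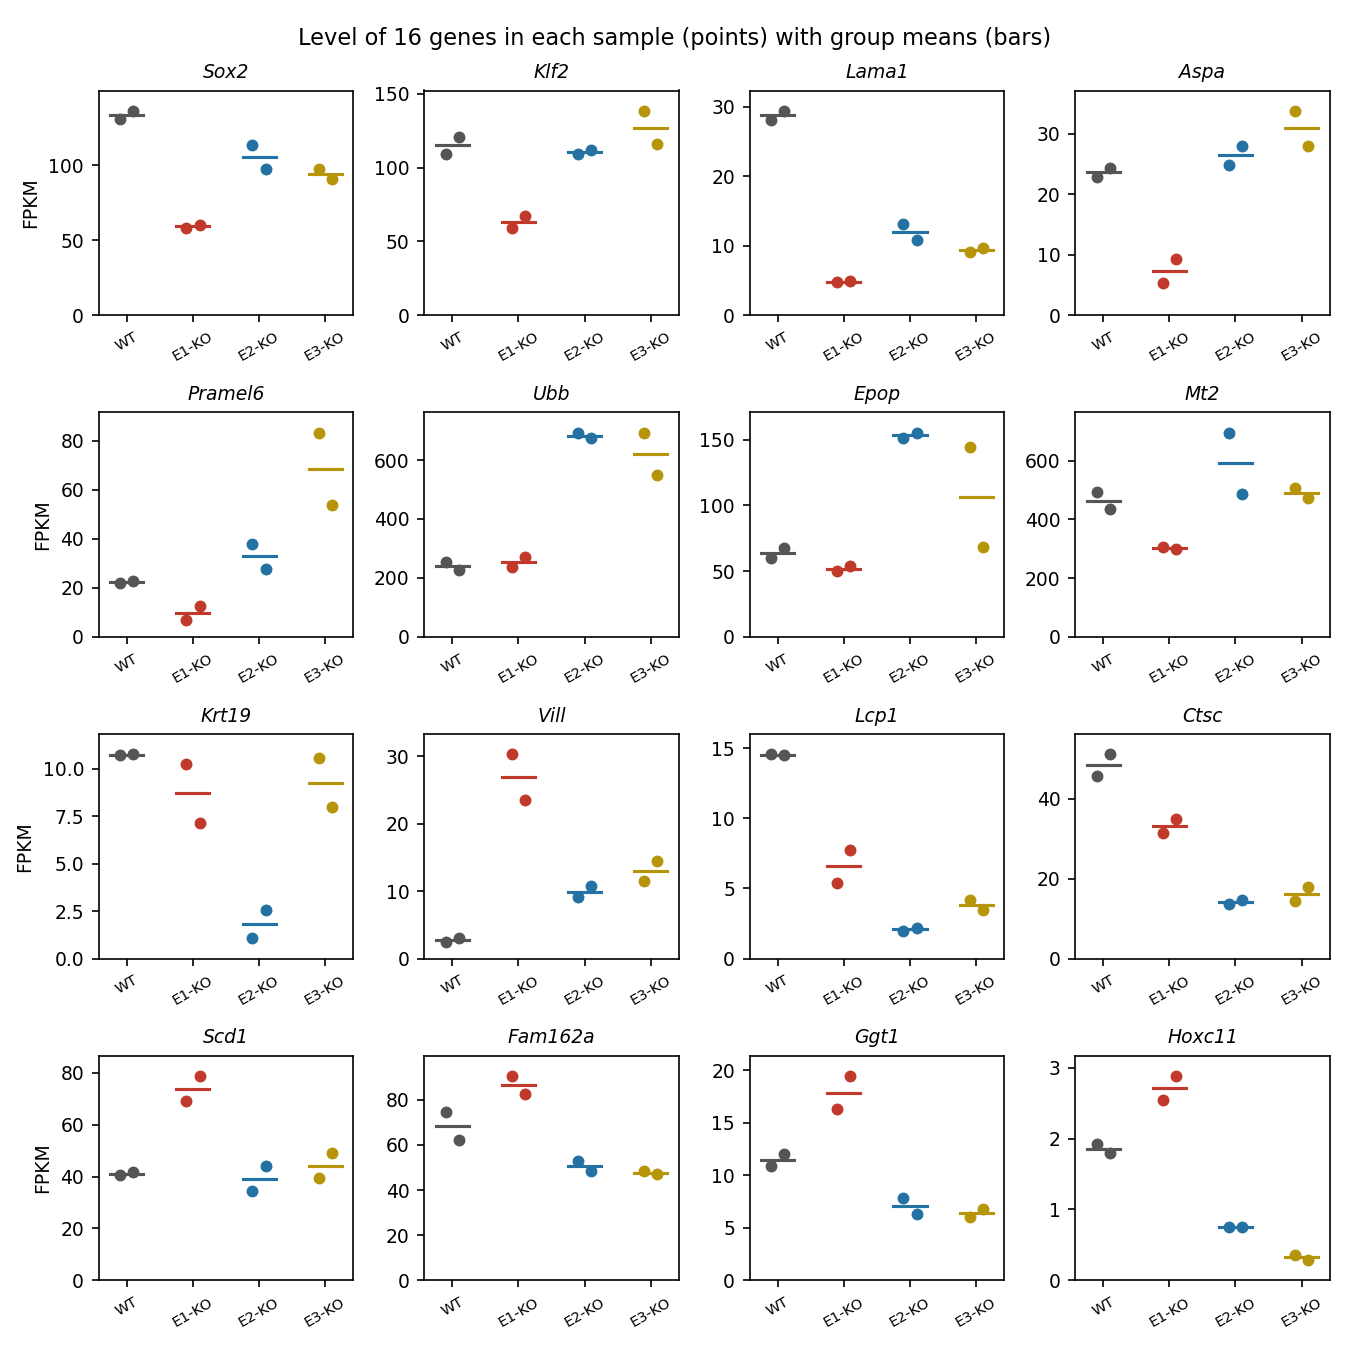
Level in FPKM (y axis, from 0) of 16 named genes in each of the 8 samples (points), with the mean of the 2 samples of each group (bars). Sox2, Klf2, Lama1, Aspa, Pramel6, Ubb, Epop and Mt2 are higher in both E2-KO samples than in both E1-KO samples and the other 8 genes are lower, while the place of WT differs from gene to gene.

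Homeobox genes of the Hoxc cluster, which specify posterior body position, were looked at as a family after their values were seen. Of 5 tested Hoxc genes 3 were called lower (all tested genes 0.346%). In 4 both E2-KO samples lay below both E1-KO samples (all tested genes 26%). Hoxc10 was at 4.11 and 5.53 FPKM in E1-KO and 1.14 and 1.94 FPKM in E2-KO (difference -1.20, SE 0.193, limma-trend adjusted p = 0.0362). Hoxc11 had 2.54 and 2.88 against 0.752 and 0.748 FPKM (-1.08) and Hoxc4 4.16 and 4.44 against 1.68 and 2.26 FPKM (-0.84). Without its E1-KO samples Hoxc11 would not have reached the tested level. Hoxc12 (-0.46, limma-trend adjusted p = 0.164) and Hoxc13 (-0.13, limma-trend adjusted p = 0.605) did not pass the test. Of the other clusters, Hoxa2 (-0.41, limma-trend adjusted p = 0.226), Hoxb9 (-0.08, limma-trend adjusted p = 0.75) and Hoxd8 (-0.49, limma-trend adjusted p = 0.429) were not called. A further homeobox gene among the called was Cdx1, a regulator of Hox genes and a WNT target, with 10.3 and 15.3 FPKM in E1-KO and 5.50 and 5.58 FPKM in E2-KO (-1.05, SE 0.184, limma-trend adjusted p = 0.0439).

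The Prame family of leucine-rich repeat proteins, some of which are expressed in early embryos and germ cells, was likewise grouped after the values were seen. Of 6 tested members 3 were called higher (all tested genes 0.488%), none lower, and the median difference was 0.65. Pramel6 was at 6.70 and 12.7 FPKM in E1-KO and 37.97 and 27.68 FPKM in E2-KO, beside 21.9 and 22.7 FPKM in WT (difference 1.70, SE 0.28, limma-trend adjusted p = 0.0373). Pramel7 was at 4.83 and 4.57 against 8.32 and 8.53 FPKM (0.72) and Pramef17 at 4.31 and 4.79 against 11.6 and 9.33 FPKM (1.04). Pramef8 (0.58, limma-trend adjusted p = 0.148), Pramel1 (-0.14) and Pramef12 (-0.14) did not pass the test. Members of the family resemble one another in sequence, so reads may have been split between them. Pramel6 and Pramel7 are near neighbours. Their mean levels in E3-KO were above those in E2-KO, at 68.55 against 32.83 FPKM and 17.98 against 8.425 FPKM. Mean Sox2 was not, at 94.35 against 105.5 FPKM, with overlapping samples. In E2-KO mean Pramel7 lay between E1-KO and WT, as Sox2 did, while mean Pramel6 lay above WT. Whether SOX2 acts on either gene was not tested. The 250 bases before the starts of Pramel6 (chr2:87506315-87506564, plus strand) and Pramel7 (chr2:87492419-87492668, minus strand, RefSeq, GRCm38.p6) are shown. Both genes were picked because they were higher in E2-KO and hold the SOX word defined above, in capitals. The word begins 60 bases before the start of Pramel6, and 231 and 51 bases before the RefSeq start of Pramel7. GENCODE M21 places Pramel7 at chr2:87489087-87497093 on the minus strand, so the bases shown for it lie inside its annotated gene.
Pramel6: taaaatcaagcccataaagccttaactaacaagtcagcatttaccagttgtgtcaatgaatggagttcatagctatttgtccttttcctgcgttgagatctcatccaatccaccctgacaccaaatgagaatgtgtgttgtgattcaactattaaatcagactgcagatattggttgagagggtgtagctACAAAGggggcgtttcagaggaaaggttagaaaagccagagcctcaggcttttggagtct
Pramel7: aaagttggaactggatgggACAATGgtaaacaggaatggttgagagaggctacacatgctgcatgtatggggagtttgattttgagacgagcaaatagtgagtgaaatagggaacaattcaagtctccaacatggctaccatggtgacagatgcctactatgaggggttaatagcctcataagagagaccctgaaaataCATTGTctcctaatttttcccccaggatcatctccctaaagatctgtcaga

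The position of WT relative to the lines was described for each called gene. WT lay between the means of the lines in 48 of the 94 called genes (51.1%), compared with 16.7% of all tested genes. E2-KO lay between WT and E1-KO, as for Sox2, in 27 called genes (28.7%, all tested genes 44.2%), and E1-KO lay between WT and E2-KO in 19 (20.2%, all tested genes 39.1%). The comparisons with WT share the same 2 WT samples, so their values are given side by side. Of the 94 genes, 42 were called against WT in E1-KO only (44.7%, all tested genes 11.6%) and 26 in E2-KO only (27.7%, all tested genes 9.8%). Another 17 were called in both lines in the same direction (18.1%, all tested genes 26.3%) and 9 in both in opposite directions. Those 9 genes were the whole number of such genes among the 11274 tested. The called genes were picked by the difference between the lines. That choice alone widens the gap in which WT can lie and favours a call against WT in at least 1 line. The shares above follow in part from it, so those of all tested genes are not a like comparison. Opposite calls against WT likewise imply a difference between the lines.

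Of these 9 genes, 6 were above WT in E1-KO and below it in E2-KO. D430042O09Rik had 16.14 and 19.02 FPKM in E1-KO, 6.08 and 4.04 FPKM in E2-KO and 7.63 and 7.78 FPKM in WT, which gave 1.09 for E1-KO and -0.54 for E2-KO against WT. Ggt1, the gamma-glutamyl transferase that breaks down glutathione, had 16.3 and 19.4 FPKM in E1-KO, 7.82 and 6.34 FPKM in E2-KO and 10.84 and 12.04 FPKM in WT (0.59 and -0.63). The mitochondrial protein gene Fam162a, a known hypoxia-responsive gene, had 90.4 and 82.5 FPKM in E1-KO, 52.9 and 48.6 FPKM in E2-KO and 74.7 and 62.0 FPKM in WT (0.34 and -0.42). In each of these the samples of E1-KO lay above all WT samples and those of E2-KO below them. The differences from WT were smaller for the splicing-associated gene Rsrc1 (0.41 and -0.35), the zinc finger gene Zmym4 (0.33 and -0.32) and the annexin gene Anxa6 (0.34 and -0.30). The remaining 3 genes moved the other way: the phospholipid flippase gene Atp11a (-0.33 and 0.44), the kinase gene Stk33 (-0.43 and 0.43, below 1.2 FPKM in the 4 samples) and Nlrp9b (-0.50 and 0.60), a gene of the NLRP family expressed in oocytes.

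Gene lists of pluripotency, lineage, signalling and metabolism are given by counts and medians, beside the median of -0.005 over all tested genes. Both E2-KO samples lay above both E1-KO samples in 24.9% of all tested genes and below both in 26%. At an unadjusted limma-trend p under 0.05, 1029 of the 11274 tested genes were higher and 1062 lower. A list with no called member had none with limma without trend or after quantile normalization either. Without the E3-KO group, where 253 genes were called, some such lists gained a call, which was Dppa4, Spp1, Krt18 or Nupr1. Lists that already had a call then gained Asz1, Stra8, Tex101, Impact, Peg10, Vim and Spp1. The hypoxia and p53 lists gained none. Of 20 tested naive pluripotency genes, 1 was called (Klf2), 10 had both E2-KO samples above both E1-KO samples and 4 both below, and the median was 0.13. Nanog stood at 508 and 522 FPKM in E1-KO and 524 and 618 FPKM in E2-KO (0.14, limma-trend adjusted p = 0.58). Dppa5a was at 453 and 460 against 481 and 480 FPKM (0.07, but -0.07 after quantile normalization) and Tdgf1, a Nodal co-receptor, at 398 and 393 against 338 and 312 FPKM (-0.28), neither called. Tcl1 had 28.9 and 32.0 FPKM in E1-KO and 39.3 and 50.2 FPKM in E2-KO, beside 80.2 and 91.0 FPKM in WT (0.53, limma-trend adjusted p = 0.0977). Against WT, the list's median was -0.49 in E1-KO and -0.25 in E2-KO, where the medians of all tested genes were -0.06 and -0.08.

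Of 12 general pluripotency genes none was called by limma-trend, 1 had an unadjusted p under 0.05 in each direction, and the samples of the lines overlapped in most. Pou5f1 was at 428 and 467 FPKM in E1-KO and 553 and 445 FPKM in E2-KO, where the lines overlapped. Dppa4, a DNA-binding protein of pluripotent cells, was at 219 and 204 FPKM in E1-KO and 111 and 63.8 FPKM in E2-KO, beside 66.3 and 65.6 FPKM in WT. Its difference was large but so was the spread between the E2-KO samples (-1.32, SE 0.378, limma-trend adjusted p = 0.123), and it passed the threshold in fits without the E3-KO group or either of its samples (limma-trend adjusted p = 0.0328 without the group). Of 10 tested formative and primed genes none was called by limma-trend, and 2 higher and 3 lower genes had an unadjusted p under 0.05. Tcf15 had 21.4 and 18.8 FPKM in E1-KO and 8.76 and 6.90 FPKM in E2-KO (-1.26, limma-trend adjusted p = 0.0607), while Etv5 (0.08) and Dnmt3b (0.19) were close. Of 7 genes with known SOX2-OCT4 elements 4 had both E2-KO samples above both E1-KO samples (all tested genes 24.9%) and none both below (26%). None of the 7 was called by limma-trend. The only one of them with an unadjusted p under 0.05 was Spp1, osteopontin, at 298 and 313 against 506 and 434 FPKM (0.61, limma-trend adjusted p = 0.0709).

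Of the neural, mesendoderm and trophectoderm lists 4 of 13, 3 of 15 and 8 of 12 members reached the tested level, and none was called by limma-trend. In the neural list 2 lower members had an unadjusted p under 0.05, in the mesendoderm list 1 in each direction, and in the trophectoderm list 2 higher and 3 lower. Of the 10 two-cell-state genes found, none reached the tested level. Among signalling lists, the called genes were Cdx1 of 8 WNT targets and none of 15 FGF and ERK, 13 LIF and STAT3, 12 Nodal and 11 BMP genes. At an unadjusted limma-trend p under 0.05 these 4 lists had 0, 0, 1 and 0 higher and 1, 0, 4 and 1 lower members. The Nodal list had the lowest median of the signalling lists (-0.25), and its feedback inhibitor Lefty2 was at 20.03 and 11.21 FPKM in E1-KO, 5.24 and 10.1 FPKM in E2-KO and 43.5 and 42.6 FPKM in WT (-0.94, SE 0.305, limma-trend adjusted p = 0.16). Of 21 cell cycle genes none was called and 5 lower members had an unadjusted p under 0.05, among them the proliferation marker Mki67, at 77.0 and 68.5 against 55.5 and 40.7 FPKM (-0.60, limma-trend adjusted p = 0.114).

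**Figure D3:**
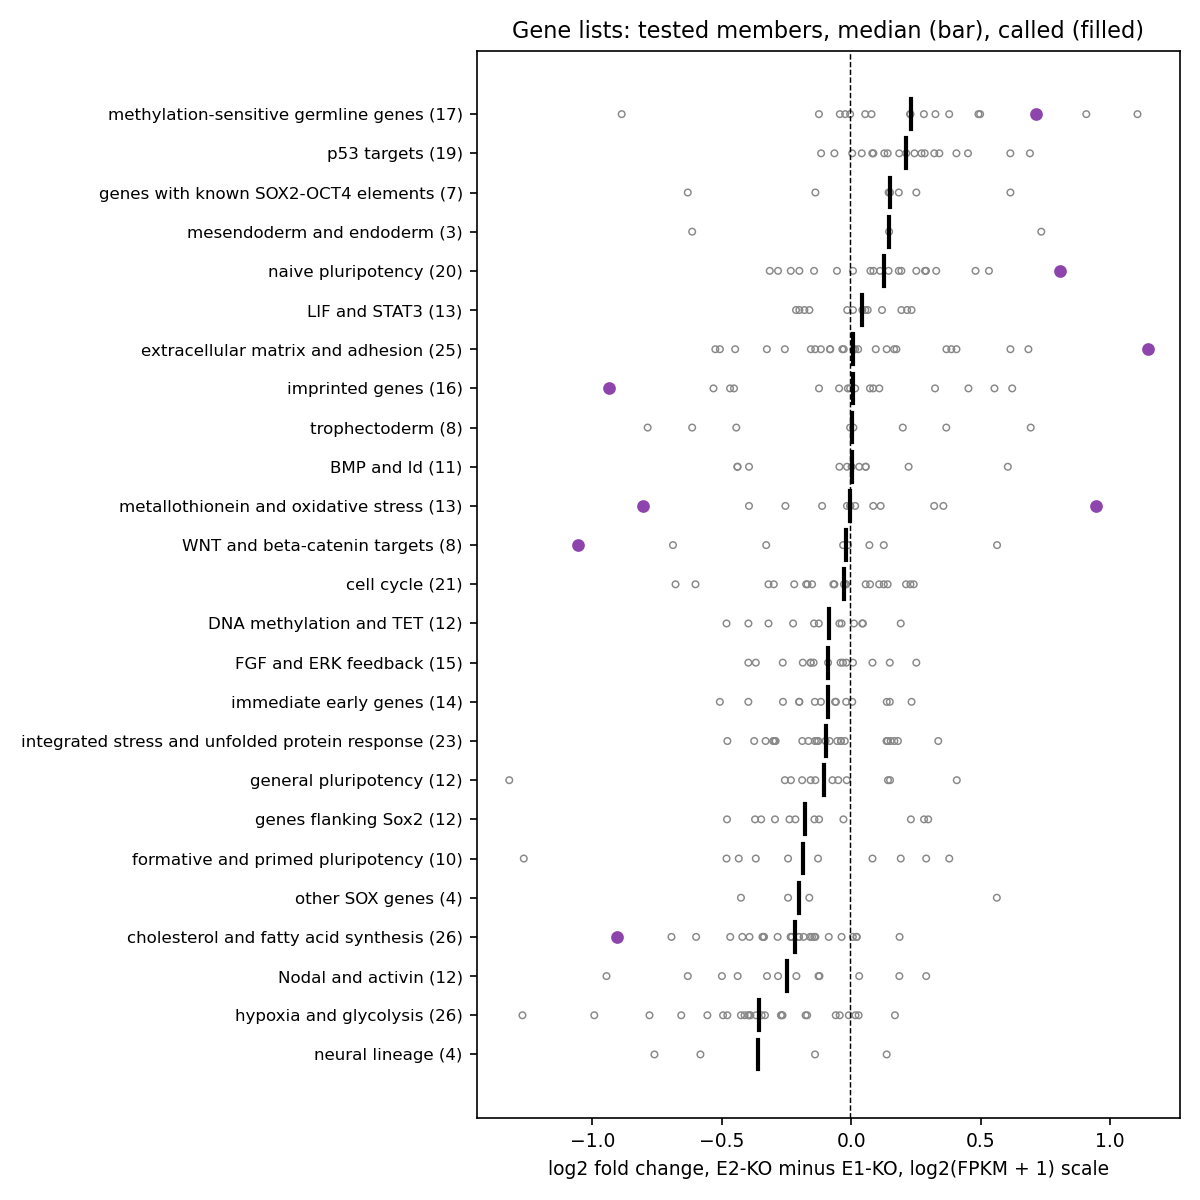
Difference E2-KO minus E1-KO on the log2(FPKM + 1) scale (x axis) of each tested member (circles) of 25 gene lists, with the number tested in parentheses, the list's median (bar) and called members filled. Medians run from -0.36 to 0.23, and 8 members are called in all, which are Tdrd12, Klf2, Lama1, Phlda2, Mt2, Srxn1, Cdx1 and Scd1.

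Genes of glycolysis and the hypoxia response were on the lower side in E2-KO as a list, though no member passed the test singly. Of 26 tested members, 20 had both E2-KO samples below both E1-KO samples and 1 both above, where 26% and 24.9% of all tested genes did. The list's median was -0.36, and 13 members were lower and none higher at an unadjusted limma-trend p under 0.05. Aldoc, an aldolase, was at 10.2 and 6.41 FPKM in E1-KO and 1.81 and 4.08 FPKM in E2-KO (-1.27, SE 0.291, limma-trend adjusted p = 0.0813). Pdk1, the kinase that shuts pyruvate out of the mitochondrion, had 55.0 and 42.6 against 33.7 and 22.9 FPKM (-0.78, limma-trend adjusted p = 0.0816), and Vegfa, the vascular growth factor, 45.3 and 46.4 against 27.1 and 35.2 FPKM (-0.56, limma-trend adjusted p = 0.104). Bnip3, a mitophagy receptor, was at 42.0 and 28.9 FPKM in E1-KO and 10.8 and 26.7 FPKM in E2-KO, where the second samples of the lines were close. Pkm, a pyruvate kinase and among the highest members, was at 971 and 869 against 654 and 775 FPKM (-0.37, limma-trend adjusted p = 0.213). Other highly expressed members were nearly level: Gapdh was at 4474 and 4050.2 against 4547 and 5039 FPKM (0.17, but -0.12 after quantile normalization) and Aldoa at 621 and 585 against 585 and 635 FPKM (0.02, but -0.17 after quantile normalization and -0.02 when scaled without the 50 highest genes).

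The size of the hypoxia difference depended on the libraries. The median over the list was -0.52 for E2-KO replicate 1 minus E1-KO replicate 1 and -0.09 for E2-KO replicate 2 minus E1-KO replicate 2, with -0.35 and -0.30 for the crossed pairs. Within the lines it was 0.16 for the first minus the second E1-KO sample and -0.22 for the first minus the second E2-KO sample. Against WT the list's median was -0.11 in E1-KO and -0.49 in E2-KO. Fam162a, called on its own, is shown with its upstream bases (chr16:36071562-36071811, minus strand, RefSeq, GRCm38.p6) because they hold the core word of the hypoxia response element, ACGTG on either strand, which reads CACGT here, 81 bases before the start, in capitals.
Fam162a: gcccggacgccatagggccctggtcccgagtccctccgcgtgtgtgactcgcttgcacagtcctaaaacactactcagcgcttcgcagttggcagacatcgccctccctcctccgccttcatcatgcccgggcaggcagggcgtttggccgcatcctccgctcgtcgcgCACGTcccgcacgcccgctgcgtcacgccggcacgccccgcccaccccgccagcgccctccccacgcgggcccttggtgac

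The word ACGTG was found in 3721 of 22862 such upstream windows (16.3%), in 22.9% of those of tested genes and in 8 of 15 of those of the tested hypoxia and glycolysis genes (53.3%). Among the genes called lower it was found in 3 of 20 (15.0%) and among those called higher in 3 of 29 (10.3%).

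Genes of cholesterol and fatty acid synthesis were also on the lower side. Of 26 tested members 1 was called lower and none higher, with a median of -0.21. Both E2-KO samples lay below both E1-KO samples in 18 (all tested genes 26%) and above both in 1 (24.9%). Scd1, the desaturase that makes monounsaturated fatty acids, was at 69.0 and 78.7 FPKM in E1-KO and 34.4 and 44.1 FPKM in E2-KO, beside 40.5 and 41.9 FPKM in WT (-0.90, SE 0.146, limma-trend adjusted p = 0.0362). E2-KO was thus at the WT level, and E1-KO was the line above it. Lss, lanosterol synthase, had 15.5 and 22.7 against 10.3 and 12.2 FPKM (-0.69, limma-trend adjusted p = 0.131), and Dhcr7, which completes cholesterol synthesis, 35.0 and 39.3 against 20.1 and 29.0 FPKM (-0.60, limma-trend adjusted p = 0.111). Fasn, fatty acid synthase, was at 92.1 and 100.1 FPKM against 105 and 114 FPKM (0.19, limma-trend adjusted p = 0.331). Against WT the list's median was 0.31 in E1-KO and 0.03 in E2-KO. It was -0.08 to -0.33 over the 4 pairs of an E2-KO with an E1-KO sample.

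Targets of p53, the transcription factor of the DNA damage response, were on the higher side in E2-KO without a called member. Of 19 tested targets, 10 had both E2-KO samples above both E1-KO samples (all tested genes 24.9%) and none both below (26%). The median was 0.21, and 6 were higher and none lower at an unadjusted limma-trend p under 0.05. Perp, a desmosome-associated protein, was at 4.71 and 3.79 FPKM in E1-KO and 7.10 and 7.80 FPKM in E2-KO (0.69, limma-trend adjusted p = 0.16), and Bax, which permeabilizes mitochondria in apoptosis, at 117 and 111 against 150.4 and 139 FPKM (0.34, limma-trend adjusted p = 0.191). Cdkn1a, the cell cycle inhibitor p21, did not share this order, with 49.75 and 49.99 FPKM in E1-KO and 42.2 and 53.8 FPKM in E2-KO (-0.07), and was at 117 and 130 FPKM in WT. Against WT the list's median was -0.77 in E1-KO and -0.40 in E2-KO.

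**Figure D4:**
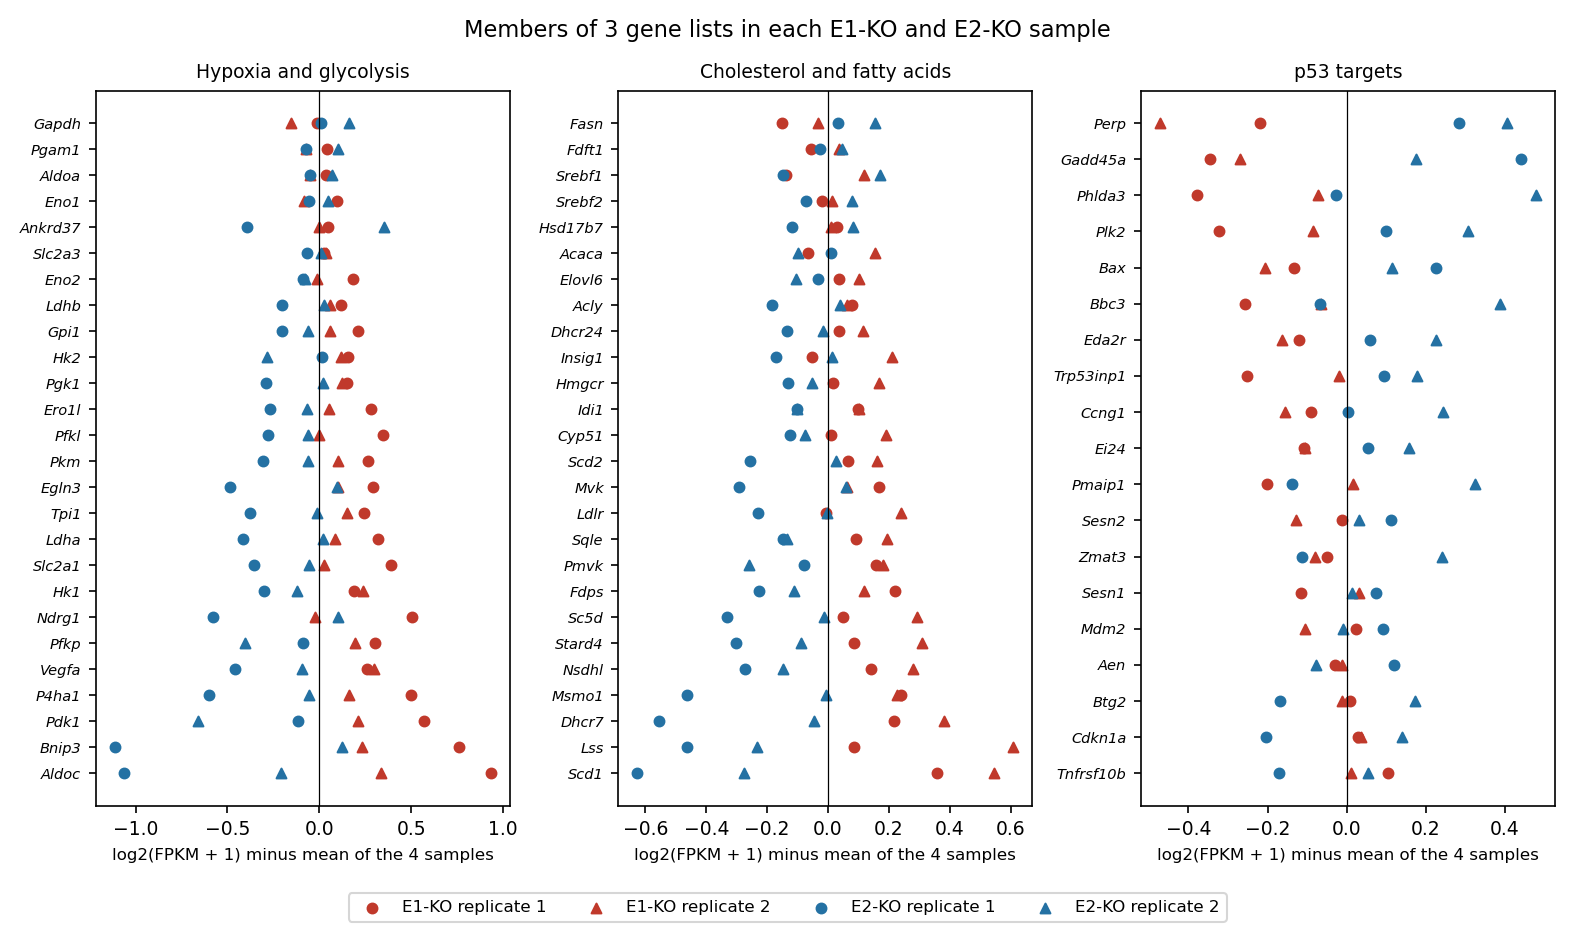
Members of the hypoxia and glycolysis, cholesterol and fatty acid, and p53 target lists (rows) in each E1-KO and E2-KO sample, as log2(FPKM + 1) minus the mean of the 4 samples (x axis). Most members of the first 2 panels have the E2-KO samples on the left, with the first E2-KO sample often farther left than the second, and most p53 targets have them on the right.

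Germline genes known to be sensitive to DNA methylation had the highest list median. Of 17 tested, 1 was called higher (Tdrd12) and none lower, and the median was 0.23. Both E2-KO samples lay above both E1-KO samples in 9 (all tested genes 24.9%) and below both in 1 (26%). Tdrd12, a protein of the piRNA pathway, was at 1.22 and 1.43 FPKM in E1-KO and 2.91 and 2.71 FPKM in E2-KO (0.71, SE 0.128, limma-trend adjusted p = 0.0458), both far below the 16.9 and 16.4 FPKM of WT. Dazl, an RNA-binding protein of germ cells, was at 59.7 and 83.8 against 101 and 98.7 FPKM (0.49, limma-trend adjusted p = 0.211), with 152 and 153 FPKM in WT. Asz1, another piRNA gene, had 0.431 and 0.439 against 2.31 and 1.88 FPKM (1.11, limma-trend adjusted p = 0.069). Stra8, a regulator of meiotic entry, stood on the other side, with 12.9 and 11.5 FPKM in E1-KO and 5.18 and 7.21 FPKM in E2-KO (-0.89, limma-trend adjusted p = 0.0813). Of 12 DNA methylation and TET genes none was called by limma-trend, and 1 lower member had an unadjusted p under 0.05. The de novo methyltransferase Dnmt3a was at 24.6 and 22.9 FPKM in E1-KO and 18.5 and 15.1 FPKM in E2-KO (-0.48, limma-trend adjusted p = 0.318).

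Of 25 tested genes of the extracellular matrix and adhesion only Lama1 was called, and the median was 0.01. Its partner chain Lamc1 was level, at 100.4 and 104 FPKM in E1-KO and 109 and 98.4 FPKM in E2-KO. Vim, vimentin, was at 69.8 and 52.5 against 94.8 and 101 FPKM (0.68, limma-trend adjusted p = 0.0678). Of 16 imprinted genes 1 was called, Phlda2, a growth-limiting gene of the placenta, at 4.11 and 3.23 against 1.29 and 1.58 FPKM (-0.94, SE 0.158, limma-trend adjusted p = 0.0414). Of 23 stress and unfolded protein response genes and 14 immediate early genes none was called by limma-trend, and 1 and 0 higher and 2 and 1 lower members had an unadjusted p under 0.05. Of 4 other tested SOX genes none was called, and 1 had an unadjusted p under 0.05 in each direction.

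A list of genes named as flanking Sox2 was measured as well. Its members were chosen by symbol and not by annotated position, so some may lie on another chromosome. Of 12 tested, none was called by limma-trend. Both E2-KO samples lay above both E1-KO samples in 2 (all tested genes 24.9%) and below both in 6 (26%). The median was -0.18, and 1 higher and 3 lower members had an unadjusted limma-trend p under 0.05. Atp11b, a flippase gene, was at 35.0 and 29.9 FPKM in E1-KO and 23.3 and 22.6 FPKM in E2-KO (-0.48, SE 0.116, limma-trend adjusted p = 0.0913). The medians of the 20 chromosomes lay between -0.03 and 0.03, over at least 190 genes each, so no whole chromosome stood apart between the lines.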

How the data were processed

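RNA of 8 samples, 2 for each of WT and the knockouts of E1, E2 and E3, was measured by total RNA sequencing with paired-end reads of 150 bases (per the labels' protocols). For each sample the authors deposited gene identifiers with an FPKM value. Trimmomatic 0.36, TopHat2 2.0.12, Cufflinks 2.2.1 and the build mm9 are named in the submitters' processing notes. The annotation and the strand setting of the counting are not given in the sources used here. FPKM as the unit was inferred from Cufflinks and from the values, which were not whole numbers and summed to 479866 to 532007 in the 4 samples compared. The files give no absolute depth and whole reads were not recoverable, so values carry no counting interval. Low values gave depths of 0.979 (E1-KO replicate 2), 1.13 and 1.03 (E2-KO) relative to E1-KO replicate 1, as rough estimates, since only 13.7% to 18.5% of the ratios of low values had the most frequent value.

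Each file held 18774 rows and 17812 identifiers, 660 of them repeated. For 582 of these the row in genome order was kept, and 78 were left out, which left 17734 identifiers. Called genes with more than 1 row included Sfxn5, Cpne5, Gsta3, Hspb8, Aass and H2-Eb1. Symbols and positions came from GENCODE M21 (GRCm38, 17262 matched), which is not the authors' build, so coordinates refer to the annotation. Of the 94 called genes, 39 overlap an annotated gene on the other strand.

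Genes whose mean over the 8 samples reached 1 FPKM entered limma-trend (limma 3.58.1, R 4.3.3). The model was fitted to log2(FPKM + 1) of all groups together, with no term besides the group, and the contrast E2-KO minus E1-KO was tested two-sided. Calls needed a p-value under 0.05 after Benjamini-Hochberg adjustment over all tested genes. The fit was tested on simulated data in which 200 of 11274 genes were changed in E2-KO. It called 0 of them in the right direction at a log2 change of 0.5, 165 at 1 and 200 at 2. Lists with no called member may therefore hold differences of about 0.5 that the fit could not call. The members and lists were chosen with earlier results of these data known. Named genes were Sox2, the 12 highest and 12 lowest called differences with a symbol and samples that did not overlap, up to 15 genes called in 4 fits together (as described, with the replicate block, after quantile normalization and without trend), and called or highly expressed list members. All other genes were named after their values were seen. Some genes that the rule names are not reported here. Alternatives were the replicate block, the pair alone, quantile, median-ratio and top-gene scaling, limma without trend, other filters, thresholds and pseudocounts (0.1), repeated identifiers left out or summed and leaving out each replicate. The fit without E3-KO and the pair alone with the block were chosen after seeing the data. Plots were made in Python 3.11.15 with matplotlib 3.10.9.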

Additional observations from a re-analysis of the deposited data

Results flagged for a closer look

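The difference E2-KO minus E1-KO is also the difference between the changes of the lines against the same WT samples, and by limma-trend it passed the adjusted threshold for 94 genes. Of these, 9 genes were called against WT in both lines in opposite directions. For Sox2 the change against WT differed by 0.82 between the lines. Among the 9 genes the difference E2-KO minus E1-KO was -1.63 for D430042O09Rik, -1.22 for Ggt1, -0.76 for Fam162a, -0.76 for Rsrc1, -0.65 for Zmym4 and -0.64 for Anxa6. It was 0.77 for Atp11a, 0.86 for Stk33 and 1.1 for Nlrp9b. Groups of 2 samples were too small for a search for outlying samples.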

How the results depend on the processing

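The number of genes called was the least stable result. Against 94 genes, it was 58 with a mean of at least 5 FPKM, 1 with all genes above 0, 1 in the pair alone, 0 at an adjusted p under 0.01, 41 with an added absolute difference of at least 1 and 253 without the E3-KO group. Leaving out a replicate gave 2 to 261 genes, with the lowest number without E2-KO replicate 1 and the highest without E3-KO replicate 1. Under quantile normalization, scaling without the 50 highest genes, median-ratio scaling, limma without trend, a pseudocount of 0.1 and repeated identifiers left out or summed it was 92, 76, 108, 91, 108, 87 and 92. Of the 94 genes, 85 were also called after quantile normalization, 71 without trend and 94 without E3-KO. For single called genes the samples of the lines did not overlap, so leaving out 1 replicate could not reverse the direction. The call was lost in more of these fits than it was kept. Of the 67 with a mean of at least 5 FPKM, 58 were called with that filter.

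Sox2 did not pass in the pair alone (0.82, limma-trend adjusted p = 0.0551) or when no filter on low values was set (0.82, limma-trend adjusted p = 0.0564). Leaving out a replicate gave differences of 0.71 to 0.93. At 0.0161 and 0.82 it met neither the adjusted p under 0.01 nor the absolute difference of at least 1. In the other alternatives that used all 8 samples or left out the E3-KO group, and in the pair alone with the block, it passed, with differences of 0.78 to 0.83.

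The labels number the replicates 1 and 2 in every group, but same-numbered samples did not deviate together (r = -0.04 between E1-KO and E2-KO across genes, -0.04 to 0.09 over all pairs of groups), so the numbers were not taken as pairs. With the replicate number as a block 31 genes were called, 19 higher and 12 lower, of which 30 were among the 94, and the limma-trend adjusted p of Sox2 was 0.0359. In the pair alone with the block 298 genes were called.

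Reversed values were -0.069 for Dppa5a, -0.12 for Gapdh and -0.175 for Aldoa after quantile normalization, -0.007 for Smad7 and -0.022 for Aldoa when scaled without the 50 highest genes, and 0.005 for Sfxn5 with repeated identifiers summed. Without a replicate, differences of either sign were found for Trim28 (-0.053 to 0.019), Pou5f1 (-0.006 to 0.306), Etv5 (-0.02 to 0.185), Smad7 (-0.034 to 0.096), Tuba3a (-0.263 to 0.014), Aen (-0.057 to 0.139), Aldoa (-0.043 to 0.076), Fxr1 (-0.223 to 0.163) and Dnajc19 (-0.107 to 0.702). The cause was not tested.

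List medians kept their sign under the alternatives run for the hypoxia and glycolysis (-0.44 to -0.20), cholesterol and fatty acid (-0.28 to -0.16), p53 (0.14 to 0.30), germline (0.10 to 0.39) and naive pluripotency lists (0.07 to 0.16), but not for the general pluripotency list (-0.32 to 0.13). With 2 samples a group, the smallest called difference was 0.51.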

Other observations

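Some of the largest differences that did not pass the test came from 1 library each. Gm11032 was at 467.6 FPKM in E1-KO replicate 2 and listed at 0 in the other 3 samples of the lines, and Gm10491 was at 159 FPKM in E2-KO replicate 1 and listed at 0 in the other 3. Rnf149, a ubiquitin ligase gene, was at 127 FPKM in E1-KO replicate 2, compared with 7.11 FPKM in E1-KO replicate 1 and 7.801 and 6.203 FPKM in E2-KO. Their limma-trend adjusted p-values were 0.292, 0.437 and 0.291.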
